A study of Callithrix jacchus with 4 samples.

Results

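The unfolded protein response and the integrated stress response were followed through 32 genes in frontal cortex of the common marmoset (Callithrix jacchus), a New World monkey. The genes were taken by symbol from a list of endoplasmic reticulum (ER) stress sensors, chaperones, degradation genes and ATF4 targets. The list was chosen with earlier results of these data known. All 32 were found among the 35108 genes of the count table, and 31 passed the filter on low counts, which kept 16385 genes in all. TRIB3 did not pass, because only 1 of the 4 libraries held more than 7 of its reads.

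Total RNA was sequenced in 4 libraries. The control group was 2 libraries labelled wild type, with no sex given. The other group was 2 libraries from females labelled as carrying an APP transgene, which the series title describes as mutant and as placed under the human EF1α promoter, a promoter active in most cell types. All 4 came from frontal cortex of adults, and no other allele, treatment or exact age is given in the labels. The number of transgene insertions or founders behind the transgenic pair was not stated in the labels. The comparison asks how far the transcripts of these stress pathways differ between transgenic and wild-type cortex. The wild-type libraries held 12657323 and 13569838 counted reads, transgenic library 1 held 13462167 and transgenic library 2 held 18932180. APP stood at 1822 and 2182 CPM in wild-type cortex, where CPM are counts scaled to the TMM-adjusted library total, against 2143 and 2748 CPM in the transgenic pair, so that transgenic library 1 lay inside the wild-type range. The Y-linked gene KDM5D was counted 2 and 243 times in the wild-type pair and 0 times in either transgenic library. Sex and genotype are therefore partly confounded. The labels do not state whether each library came from its own animal, so p-values measure only the spread between these libraries, which may be technical in part.

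Proteins entering the ER are folded by chaperones and disulfide isomerases, and those that fail are returned to the cytosol and degraded. When unfolded protein builds up, sensors in the ER membrane, encoded by ERN1 (IRE1α), EIF2AK3 (PERK) and ATF6, raise the transcripts of chaperones and degradation factors and slow translation. PERK shares its substrate, the initiation factor eIF2α, with the kinases HRI, PKR and GCN2. The common output of these kinases, translation of ATF4 and then induction of CHOP (DDIT3), is called the integrated stress response. Much of this control is not visible in gene counts: ATF4 is controlled largely in translation, XBP1 by splicing and ATF6 by cleavage. In brains with amyloid or tau deposits these pathways have been studied as a possible link between misfolded protein and loss of synapses.

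Of the 31 genes tested, 0 were called between transgenic and wild-type cortex by edgeR's quasi-likelihood test with a threshold of 0.05 on the adjusted p, and the adjusted values lay between 0.79 and 0.99. The background was also 0 of 16385 genes, or 0%. DESeq2 called 48 genes of the whole table (0.293%) and limma-voom 0, and neither called any of the 31. At an unadjusted p under 0.05 edgeR had 1 of the 31 on the higher side, HERPUD1, against 3.23% of all genes, and 1 on the lower side, SDF2L1, against 2.39%. By sign 21 of them were on the higher side (67.7%, against 49.6% of all genes) and 10 on the lower. Their median log2 fold change was 0.14, beside a median of 0.00 over all genes (-0.0022). Changes were small: the fitted log2 fold change was under 0.25 in size for 23 genes and over 0.5 for 4, namely PPP1R15A, DDIT3 and HERPUD1 on the higher side and SDF2L1 on the lower.

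Both transgenic libraries lay above both wild-type libraries for 8 of the 31 genes (25.8%, against 19.5% of all genes). They lay below both for 5 (16.1%, against 19.4%), so these shares are near the background. The 8 were XBP1, CANX, DNAJC3, HERPUD1, SEL1L, SYVN1, DERL1 and SESN2, and the 5 were EIF2AK1, DNAJB9, SDF2L1, MANF and CRELD2.

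The transgenic libraries were not alike. Transgenic library 2 was above both wild-type libraries for 20 of the 31 genes (64.5%, against 39.9% of all genes) and below both for 9 (29.0%, against 41.2%). Transgenic library 1 was above both for 9 (29.0%, against 34.4%) and below both for 10 (32.3%, against 34%). Measured from the wild-type mean on the log2 CPM scale, the median of the 31 genes was -0.01 for transgenic library 1 and 0.18 for transgenic library 2, beside -0.03 and 0.03 in the wild-type libraries. For 19 of the 31 genes the gap between the transgenic libraries was larger than the difference between the group means. The same held for 10550 of the 16385 genes kept, so this was not particular to the stress genes. The median gap was 0.28 between the transgenic libraries and 0.17 between the wild-type libraries, close to the 0.29 and 0.18 seen over all genes. Leaving out transgenic library 2 brought the median log2 fold change of the 31 genes to -0.02, and leaving out transgenic library 1 brought it to 0.18.

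**Figure D1:**
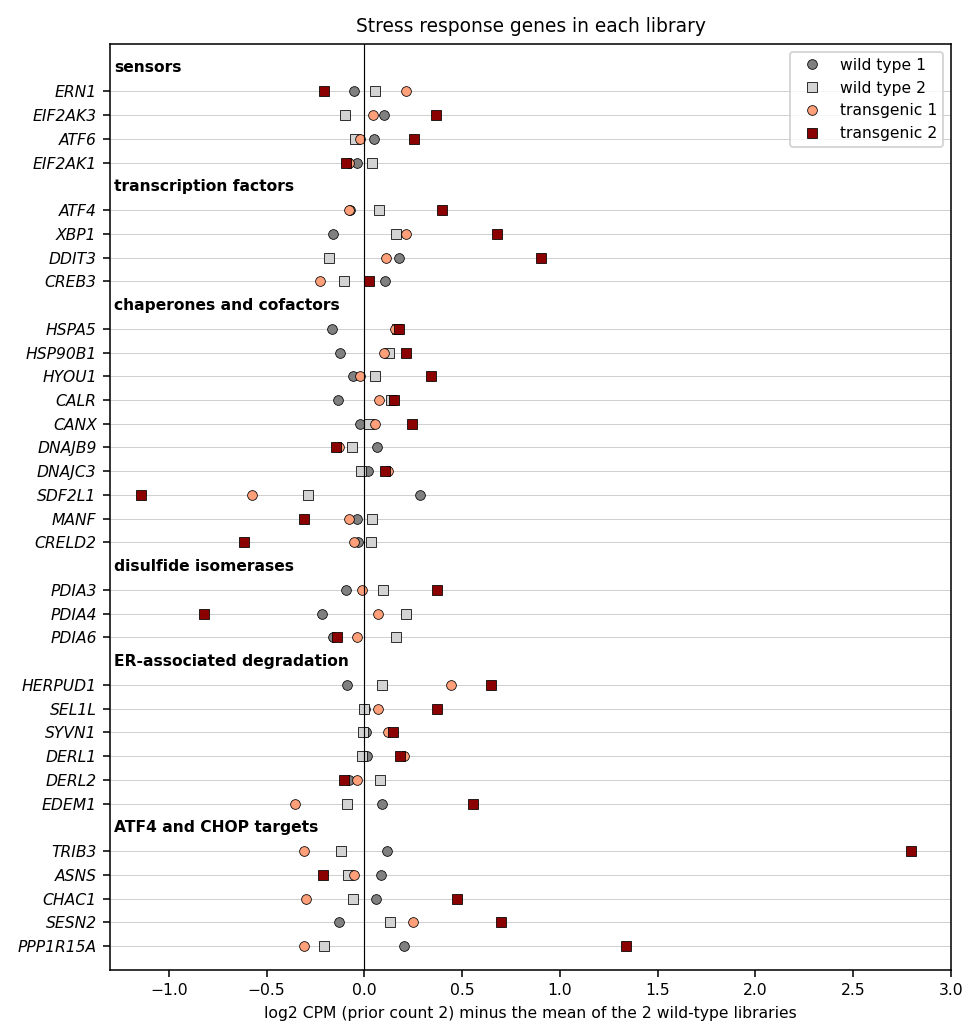
Deviation of each of the 32 genes in each library from the mean of the 2 wild-type libraries, in log2 CPM with a prior count of 2, grouped by role. Circles are library 1 and squares library 2 of each group. TRIB3 at 2.80 and PPP1R15A at 1.34 in transgenic library 2 lie farthest to the right, and SDF2L1 at -1.14 in the same library farthest to the left.

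The sensors were close to wild type. PERK (EIF2AK3), the ER kinase that phosphorylates eIF2α, was at 38.4 and 33.4 CPM in wild-type libraries 1 and 2 and at 37.0 and 46.2 CPM in transgenic libraries 1 and 2. ATF6, which is cut in the Golgi to free a transcription factor, was at 60.7 and 56.7 CPM against 57.7 and 70.0 CPM. In both genes transgenic library 1 fell inside the wild-type range and transgenic library 2 above it. ERN1, the kinase and nuclease that splices XBP1 mRNA, went in opposite ways, at 11.0 and 11.8 CPM in the wild-type pair, with 13.2 CPM in transgenic library 1 and 9.9 CPM in transgenic library 2. EIF2AK1 (HRI), the eIF2α kinase that responds to loss of heme and to mitochondrial stress, was at 120.2 and 127 CPM in the wild-type pair against 117 and 116 CPM in the transgenic pair. Its groups did not overlap, but the log2 fold change was only -0.09 ± 0.12 (SE, with 2 libraries a group here and throughout; adjusted p = 0.86 in edgeR). The median log2 fold change over the 4 sensors was 0.07, and it was 0.0044 when transgenic library 2 was left out.

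Among the transcription factors, XBP1 separated the groups and the others did not. XBP1, whose spliced form drives chaperone, secretory and degradation genes, was at 59.9 and 74.8 CPM in the wild-type pair against 77.5 and 107 CPM in the transgenic pair. Transgenic library 1 exceeded wild-type library 2 by a small margin and transgenic library 2 stood clear of the rest. The fitted fold change was 1.37 (log2 0.46 ± 0.21 SE; adjusted p = 0.79 in edgeR), and the log2 value was 0.20 without transgenic library 2. Counts per gene do not tell the spliced from the unspliced form.

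DDIT3, which encodes CHOP, a factor tied to cell death after lasting ER stress, was at 15.4 and 11.99 CPM in the wild-type pair, with 14.7 CPM in transgenic library 1 and 25.5 CPM in transgenic library 2. The excess was therefore in 1 of the 2 transgenic libraries (log2 fold change 0.56 ± 0.32 SE; adjusted p = 0.79 in edgeR), and the log2 value was 0.10 without it. ATF4 showed the same layout at a smaller size, with 162 and 179 CPM in wild type, 161 CPM in transgenic library 1 and 224 CPM in transgenic library 2. Its log2 fold change of 0.18 turned to -0.09 without transgenic library 2. CREB3, an ER-membrane factor released by the proteases that also cut ATF6, was at 75.4 and 65.0 CPM in the wild-type pair against 59.8 and 71.3 CPM in the transgenic pair.

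The 10 chaperones and their cofactors did not move as a block: 6 were on the higher and 4 on the lower side by sign, and their median log2 fold change was 0.11. HSPA5, which encodes BiP, the Hsp70 of the ER lumen and the usual marker of the unfolded protein response, was at 205 and 258 CPM in the wild-type pair against 256 and 259.8 CPM in the transgenic pair. Transgenic library 1 thus lay below wild-type library 2, and transgenic library 2 exceeded it by under 3 CPM. The log2 fold change of HSPA5 was 0.16 ± 0.15 (SE; adjusted p = 0.82 in edgeR), and it was -0.0015 without wild-type library 1. HSP90B1, the ER form of Hsp90, was at 396 and 471 CPM in the wild-type pair against 464 and 501 CPM in the transgenic pair.

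The lectin chaperones, which hold newly made glycoproteins, were also near wild type. CALR (calreticulin) was at 273 and 330.3 CPM in the wild-type pair against 316 and 334 CPM in the transgenic pair. CANX (calnexin), its membrane-bound relative, was at 395 and 408 CPM against 416 and 476 CPM, with no overlap between the groups. The log2 fold change of CANX was 0.15 ± 0.14 (SE), and 0.05 without transgenic library 2. HYOU1, a nucleotide exchange factor for BiP, was at 144 and 156 CPM in the wild-type pair, with 148 CPM in transgenic library 1 and 190.0 CPM in transgenic library 2.

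Of the J-domain partners of BiP, DNAJC3 was higher and DNAJB9 lower in both transgenic libraries, each by a narrow margin. DNAJC3 (p58IPK) was at 79.3 and 77.4 CPM in the wild-type pair against 85.3 and 84.4 CPM in the transgenic pair. DNAJB9 (ERdj4) was at 75.8 and 69.4 CPM against 66.4 and 65.7 CPM. Their log2 fold changes were 0.11 ± 0.12 and -0.14 ± 0.13 (SE).

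SDF2L1, a cofactor in BiP complexes, had the largest fitted decrease of the 31, at 16.9 and 11.3 CPM in the wild-type pair against 9.3 and 6.2 CPM in the transgenic pair. Both transgenic libraries were below both wild-type libraries, and the wild-type libraries themselves differed by more than 5 CPM. The log2 fold change of SDF2L1 was -0.87 ± 0.33 (SE), or 1.83-fold lower, with an unadjusted p of 0.042 and an adjusted p of 0.79 in edgeR. It became -0.56 with wild-type library 1 left out and -1.19 with transgenic library 1 left out. CRELD2, an ER protein that acts on disulfide bonds, was at 11.99 and 12.6 CPM in the wild-type pair, with 11.8 CPM in transgenic library 1 and 8.0 CPM in transgenic library 2. MANF, a secreted ER protein that protects neurons under stress, was at 24.8 and 26.2 CPM against 24.1 and 20.5 CPM. In both CRELD2 and MANF transgenic library 1 was less than 1 CPM below the lower wild-type library, and most of the difference was in transgenic library 2. HSPA5, SDF2L1, CRELD2 and MANF are all known targets of the unfolded protein response, and their signs differed: HSPA5 was on the higher side by sign and SDF2L1, CRELD2 and MANF on the lower.

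The protein disulfide isomerases diverged in transgenic library 2. PDIA3 (ERp57), the partner of calnexin and calreticulin, was at 121 and 139 CPM in the wild-type pair, with 128 CPM in transgenic library 1 and 168 CPM in transgenic library 2. PDIA4 (ERp72) was at 37.9 and 51.1 CPM in the wild-type pair, with 46.2 CPM in transgenic library 1 and 24.9 CPM in transgenic library 2, the lowest of the 4. PDIA6, which also limits the activity of PERK and IRE1α, was at 81.9 and 103 CPM against 89.4 and 83.1 CPM. Transgenic library 1 was inside the wild-type range for all 3 genes. The log2 fold change of PDIA4 was -0.33 ± 0.33 (SE), and it became -0.84 with transgenic library 1 left out and 0.05 with transgenic library 2 left out.

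Genes of ER-associated degradation had the highest share of members without overlap on the higher side: 4 of 6 had both transgenic libraries above both wild-type libraries (all 31 genes, 8; all genes tested, 19.5%). Among 20 further degradation genes of the wider pathway list 3 did so (15%), and 5 had both below (25%, against 19.4%). HERPUD1, a membrane protein that organises the degradation complex and a known target of both ATF6 and ATF4, was at 33.0 and 37.4 CPM in the wild-type pair against 47.8 and 55.1 CPM in the transgenic pair. The gap between the groups was wider than the gap within either group. Its fitted fold change was 1.46 (log2 0.55 ± 0.16 SE), with an unadjusted p of 0.017, the smallest of the 31, and an adjusted p of 0.79 in edgeR and 0.67 in DESeq2. The log2 value stayed between 0.44 and 0.64 when any 1 library was left out.

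SEL1L and SYVN1 encode the adaptor and the ubiquitin ligase at the core of the same complex. SEL1L was at 172 and 171 CPM in the wild-type pair against 180.3 and 222 CPM in the transgenic pair, and SYVN1 (HRD1) at 34.4 and 34.0 CPM against 37.3 and 37.9 CPM. DERL1, a channel component through which substrates leave the ER, was at 38.0 and 37.4 CPM against 43.4 and 42.8 CPM. In SYVN1 and DERL1 the libraries of each group lay within 1 CPM of each other, and the group means were 3 to 6 CPM apart. The log2 fold changes of SEL1L, SYVN1 and DERL1 were 0.23 ± 0.15, 0.14 ± 0.14 and 0.19 ± 0.14 (SE), with adjusted p between 0.79 and 0.83 in edgeR. Without transgenic library 2 they were 0.07, 0.12 and 0.20, so most of the SEL1L difference was in that library.

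The other two degradation genes overlapped. DERL2, a relative of DERL1, was at 27.0 and 30.2 CPM in the wild-type pair against 27.9 and 26.6 CPM in the transgenic pair. EDEM1, a lectin that marks misfolded glycoproteins for removal, was at 48.9 and 43.2 CPM in the wild-type pair, with 35.9 CPM in transgenic library 1 and 67.6 CPM in transgenic library 2. The transgenic libraries thus bracketed the wild type, and the log2 fold change of 0.17 became -0.36 without transgenic library 2 and 0.55 without transgenic library 1. The median over the 6 degradation genes was 0.18, and 0.09 without transgenic library 2.

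**Figure D2:**
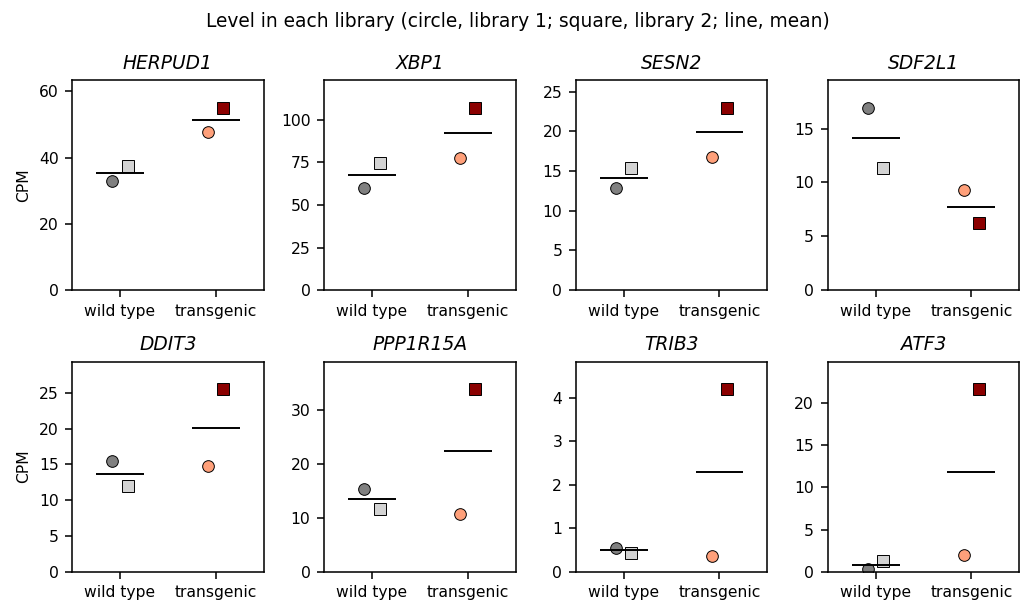
CPM in each library for 7 of the 32 genes and for ATF3 from the wider pathway list, with a line at the mean of each group and axes from 0. HERPUD1, XBP1, SESN2 and SDF2L1 had no overlap between the groups, while the excess of DDIT3, PPP1R15A and TRIB3 was in transgenic library 2 alone.

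The targets of ATF4 and CHOP held the largest deviations among the 32 genes on the higher side, and these were in transgenic library 2. TRIB3, a pseudokinase induced by ATF4 and CHOP that restrains AKT signalling, was counted 7 and 6 times in the wild-type pair, 5 times in transgenic library 1 and 76 times in transgenic library 2. The counts of 5 to 7 are near the 3 counts (0.17 to 0.23 CPM) under which a level cannot be told from 0. In transgenic library 2 the level was 4.2 CPM, 8.61 times that of the pooled wild-type libraries, with an exact 95% counting interval of 4.75 to 16.9 that compares these libraries and covers counting error only. With no filter on low counts the log2 fold change of TRIB3 was 2.25 ± 0.93 (SE; adjusted p = 0.85 in edgeR).

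PPP1R15A (GADD34), the phosphatase subunit that reverses eIF2α phosphorylation, was at 15.4 and 11.6 CPM in the wild-type pair, with 10.7 CPM in transgenic library 1 and 33.9 CPM in transgenic library 2. Transgenic library 1 was the lowest of the 4 libraries and transgenic library 2 the highest, at 2.52 times the wild-type mean. The log2 fold change was 0.73 ± 0.55 (SE; adjusted p = 0.80 in edgeR). It turned to -0.33 when transgenic library 2 was left out. Leaving out transgenic library 1 gave 1.33. That fit compares a lone transgenic library with wild type and assumes that it varies as the wild-type libraries do.

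SESN2, a stress-induced inhibitor of mTORC1, was at 12.8 and 15.4 CPM in the wild-type pair against 16.8 and 23.0 CPM in the transgenic pair, with no overlap between the groups (log2 fold change 0.49 ± 0.24 SE; adjusted p = 0.79 in edgeR). The log2 value of SESN2 was 0.24 without transgenic library 2. CHAC1, which breaks down glutathione and lies downstream of ATF4, was at 14.2 and 13.0 CPM in the wild-type pair, with 11.0 CPM in transgenic library 1 and 18.9 CPM in transgenic library 2. ASNS, the asparagine synthetase gene and a standard ATF4 target, was not on the higher side, at 269 and 239 CPM in the wild-type pair against 245 and 219 CPM in the transgenic pair. In transgenic library 2, then, TRIB3, PPP1R15A, DDIT3, SESN2 and CHAC1 were each above both wild-type libraries and ASNS was below both. The median log2 fold change of the 4 targets that passed the filter was 0.32, and it turned to -0.18 with transgenic library 2 left out.

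**Figure D3:**
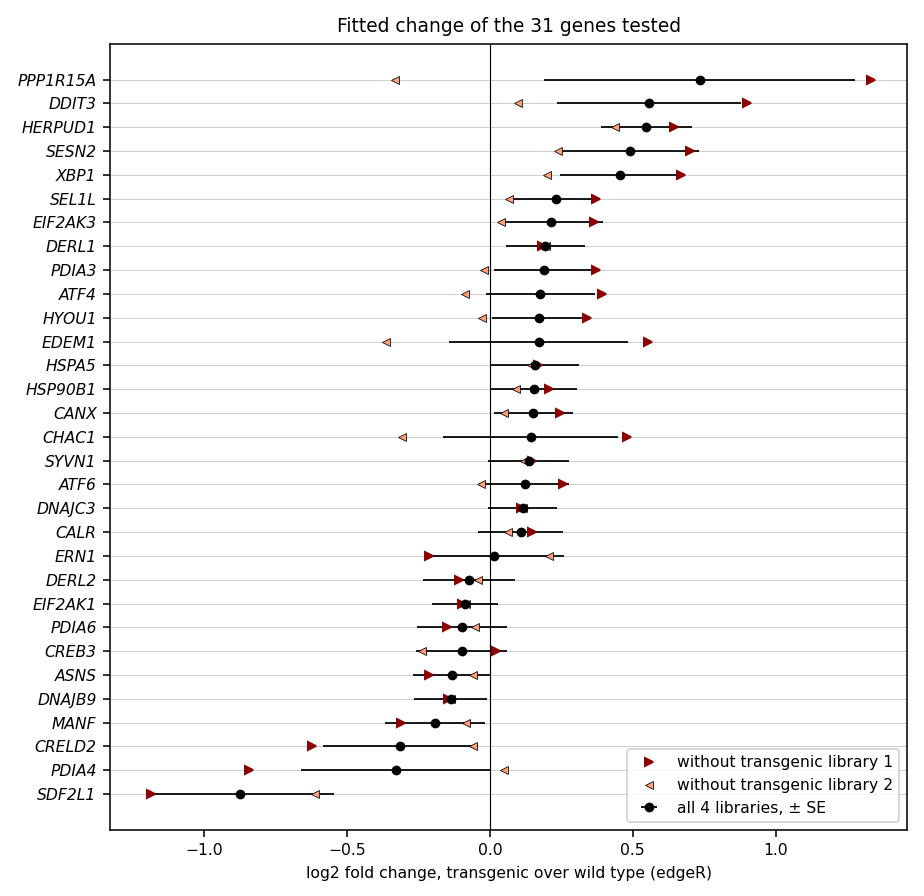
Fitted log2 fold change of the 31 genes tested, transgenic over wild type, with the SE of the edgeR fit (black), and the same value without transgenic library 1 or without transgenic library 2 (triangles). Without transgenic library 2, 8 genes changed side of 0: PPP1R15A, CHAC1, EDEM1, ATF4, ATF6, HYOU1, PDIA3 and PDIA4. Without transgenic library 1, ERN1 and CREB3 did so. The other genes, HERPUD1 and SDF2L1 among them, kept their side in all 3 fits.

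The rest of the pathway was read from a list of 98 other genes, all of which passed the filter: 25 for signalling, 27 ATF4 targets, 26 for ER folding and 20 for degradation. Of these, 0 were called by edgeR, and DESeq2 and limma-voom also called 0. At an unadjusted p under 0.05 edgeR had 5 of the 98 on the higher side, against 3.23% of all genes, and 2 on the lower, against 2.39%. By sign 59 were on the higher side (60.2%, against 49.6% of all genes) and 39 on the lower, and the median log2 fold change was 0.05. Groups did not overlap for 18 genes on the higher side and 18 on the lower (18.4% each), near the background of 19.5% and 19.4%. Transgenic library 2 was above both wild-type libraries for 55 of the 98 (56.1%, against 39.9%) and transgenic library 1 for 25 (25.5%, against 34.4%). By role the medians were 0.12 for signalling, 0.05 for ATF4 targets, 0.03 for ER folding and 0.04 for degradation. The wider ATF4 targets did not show the higher median of the 4 tested among the 32 genes.

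With the smallest p on the higher side of this list, VLDLR, a lipoprotein and reelin receptor gene induced by ATF4, was at 26.8 and 29.2 CPM in the wild-type pair against 39.5 and 46.2 CPM in the transgenic pair (log2 fold change 0.61 ± 0.16 SE; adjusted p = 0.79 in edgeR). CREB3L1, an ER-membrane transcription factor related to CREB3, had 23 and 27 counts in wild type and 66 and 61 in transgenic cortex. ATF3, a factor induced by ATF4 and by many injuries, had 4 and 17 counts in wild type, 27 in transgenic library 1 and 392 in transgenic library 2. VLDLR, CREB3L1 and ATF3 had no overlap between the groups, but ATF3 depended on transgenic library 2: its log2 fold change was 3.91 ± 1.28 (SE; adjusted p = 0.79 in edgeR), and 1.33 without that library.

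On the lower side were ERP29, a chaperone of the ER lumen, at 44.96 and 49.6 CPM in the wild-type pair against 37.2 and 31.3 CPM in the transgenic pair, and the signal peptidase subunit gene SPCS2, at 68.2 and 73.5 CPM against 57.6 and 43.5 CPM. TRAF2, an adaptor that binds activated IRE1α, was at 9.7 and 9.4 CPM against 6.9 and 6.1 CPM. For ERP29, SPCS2 and TRAF2 both transgenic libraries were below both wild-type libraries, and the adjusted p was 0.79 in edgeR.

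Transgenic library 2 also stood apart in the makeup of the tissue as its markers show it. The summed level of 8 astrocyte markers was 6368 to 7549 CPM in wild type, 6921 CPM in transgenic library 1 and 2186 CPM in transgenic library 2. SLC1A2 carried most of the wild-type sum, at 4922 and 4173 CPM against 4337 and 999 CPM. In transgenic library 2, 7 of the 8 were below both wild-type libraries, and GFAP was the exception, at 695 and 517 CPM in the wild-type pair against 757 and 635 CPM in the transgenic pair. For 8 oligodendrocyte markers it was 2530 to 3234 CPM, 3147 CPM and 1156 CPM, and for 5 markers of their precursors 192 to 262 CPM, 241 CPM and 113 CPM. The 8 microglial markers summed to 178 to 236 CPM in wild type and to 129 and 84.9 CPM in transgenic libraries 1 and 2, and the 6 endothelial markers to 195 to 273 CPM and to 163 and 130.0 CPM. Excitatory neuron markers, 6 genes, summed to 5251 to 6314 CPM in wild type and to 5491 and 5907 CPM in transgenic cortex, and the 6 inhibitory ones to 627 to 646 CPM and to 739 and 808 CPM. GAD1 and GAD2 carried most of the inhibitory sum. Of these 6, 4 had no overlap on the higher side (66.7%, against 19.5% of all genes) and 1 on the lower (16.7%, against 19.4%). The latter was PVALB, at 44.5 and 35.5 CPM in the wild-type pair against 29.6 and 25.4 CPM in the transgenic pair. In such bulk tissue, fewer cells of a type and less RNA per cell cannot be told apart. Of 57 markers in the table, 1 was at 0 in any library: MZB1 was at 0 in all 4. MZB1 is a marker of plasma cells, which are rich in XBP1. The other plasma cell markers were detected: JCHAIN at 69 and 71 counts in the wild-type pair against 64 and 97 in the transgenic pair, and DERL3 at 4 and 8 counts against 11 and 15. The part of such cells in the XBP1 values was not tested. Meningeal fibroblast markers, 5 genes, summed to 29.3 to 103 CPM in wild type and to 143 and 34.7 CPM in transgenic cortex.

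Genes that answer to neuronal activity or to cytosolic heat shock were read beside the stress genes. The 13 immediate early genes summed to 415 and 1078 CPM in wild type and to 1215 and 655 CPM in transgenic libraries 1 and 2. The sum in transgenic library 2 was thus inside the wild-type range. Of the 13, 2 were above both wild-type libraries there (15.4%, against 39.9% of all genes) and 3 below both (23.1%, against 41.2%). The 9 cytosolic heat shock genes in the table summed to 4841 and 5416 CPM and to 5181 and 4913 CPM, a sum carried mostly by HSP90AA1 and HSPA8. Of the 9, 6 were below both wild-type libraries in transgenic library 2 (66.7%, against 41.2% of all genes). Above both there were 2, HSP90AA1 and BAG3 (22.2%, against 39.9%). HSP90AA1 was at 2925 and 3045 CPM in the wild-type pair against 2916 and 3148 CPM in the transgenic pair. BAG3, a cochaperone of Hsp70 in the cytosol, was at 23.4 and 14.8 CPM against 27.3 and 50.5 CPM. Transgenic library 2 had both the highest total count and the lowest summed astrocyte, oligodendrocyte and microglial marker levels, and the part of either in the higher DDIT3, PPP1R15A, TRIB3 and XBP1 values of that library was not tested. The microglial sum was below both wild-type libraries in transgenic library 1 as well.

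**Figure D4:**
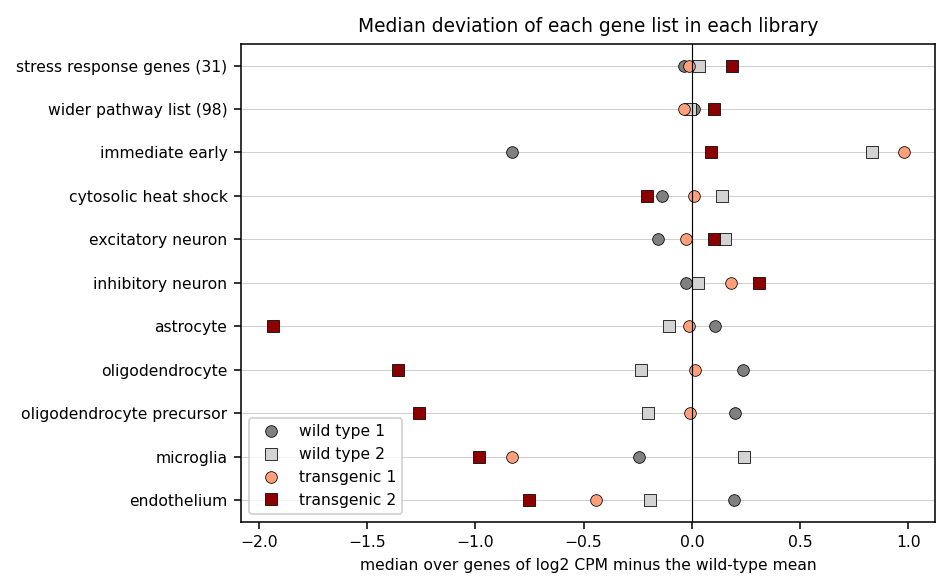
Median over genes of the deviation from the wild-type mean, in log2 CPM, for the 31 stress response genes, the 98 genes of the wider list and lists for activity, heat shock and cell types, 1 symbol per library. Transgenic library 2 was at 0.18 for the stress response genes, at -1.94 for astrocyte and at -1.36 for oligodendrocyte markers, and transgenic library 1 was within 0.02 of 0 for all 3.

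Some of the 32 genes lie across another annotated gene, and the strand setting of the counts was not stated in the labels. In RefSeq's table for calJac240_pri, an assembly that need not be the one behind the counts, all 32 matched by symbol and 11 overlapped at least 1 other gene. Among these were DDIT3 with MARS1, CREB3 with GBA2, SYVN1 with MRPL49, PDIA6 with ATP6V1C2, EIF2AK1 with ANKRD61 and ERN1 with ICAM2. Only whole gene spans were compared, without regard to strand or exons, so whether reads of such pairs were mixed in the counts was not tested. HERPUD1 and SESN2 overlapped only loci without a gene name, and TRIB3, PPP1R15A, XBP1, ATF4, HSPA5 and SDF2L1 overlapped none.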

How the data were processed

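RNA from marmoset frontal cortex was extracted with a column kit and made into Illumina libraries with KAPA Hyper reagents, per the labels' protocols. The table deposited by the authors holds raw counts of reads, 1 row per gene symbol. Per the submitters' processing notes the tools included kallisto 0.46.2, featureCounts 1.5.2 and STAR 2.5.3a, with no role given. The build and its annotation: not given in the sources used here. The members and lists were chosen with earlier results of these data known.

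Counts were analysed in R 4.3.3 with edgeR 4.0.16 (filterByExpr, TMM, quasi-likelihood F-test, genotype as the only term, 2 residual degrees of freedom, Benjamini-Hochberg adjustment over 16385 genes). DESeq2 1.42.0 and limma-voom (limma 3.58.1) were alternatives, beside other scalings and filters, a replicate block and leaving out each library with the gene set held fixed. Deviations are log2 CPM with a prior count of 2. A two-sided exact permutation test of 2 libraries against 2 cannot go below 0.33, so none was used. No 2 libraries agreed within sampling noise (a chi-square statistic over genes, divided by its degrees of freedom, of 7.62 or more). The steps were tested on simulated data. Named genes were all 32 and, of the wider list, the 3 in each direction that had the smallest p among genes without overlap whose counts averaged 20 or more. Promoter and protein sequences were not analysed here.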

Additional observations from a re-analysis of the deposited data

How the results depend on the processing

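Over the whole table edgeR called 0 genes, against 5 with no filter on low counts, 48 with DESeq2 and 0 to 1154 when 1 library was left out (3 without transgenic library 2, 1154 without transgenic library 1). Of the 31 stress genes 0 were called in every setting that kept all 4 libraries. When 1 library was left out, the median log2 fold change ran from -0.021 to 0.18 for the 31 genes, 0.0044 to 0.079 for sensors, 0.0064 to 0.53 for transcription factors, -0.013 to 0.14 for chaperones, 0.093 to 0.28 for degradation genes, -0.18 to 0.59 for ATF4 and CHOP targets and -0.043 to 0.10 for the wider list. For disulfide isomerases it ran from -0.25 to 0.073. The sensors' median was 0.022 with library totals. Genes without overlap numbered 9 to 20 on the higher and 7 to 10 on the lower side, since a lone library overlaps less easily. Without transgenic library 1 they numbered 20 (64.5%, against 39.9% of all genes) and 9 (29%, against 41.2%). Without transgenic library 2 they numbered 9 (29%, against 34.4%) and 10 (32.3%, against 34%). The share over all genes without a wild-type library is not given here. Signs turned for 14 genes without 1 library, with log2 ranges of -0.21 to 0.21 (ERN1), -0.029 to 0.25 (ATF6), -0.086 to 0.39 (ATF4), -0.24 to 0.022 (CREB3), -0.0015 to 0.33 (HSPA5), -0.026 to 0.34 (HYOU1), -0.025 to 0.25 (CALR), -0.021 to 0.37 (PDIA3), -0.84 to 0.0495 (PDIA4), -0.25 to 0.073 (PDIA6), -0.15 to 0.011 (DERL2), -0.36 to 0.55 (EDEM1), -0.31 to 0.48 (CHAC1) and -0.33 to 1.33 (PPP1R15A). ERN1 was also -0.027 with library totals and -0.021 with limma-voom. The cause of these changes was not tested. The replicate numbers were not shown to pair libraries (correlation of same-numbered deviations -0.14): with them as a replicate block the median of the 31 genes was 0.12 and 0 genes were called, as with the numbers crossed, a fit chosen after seeing the data (0.12, 0 genes). With 2 libraries a group, the counts behind TRIB3 (5 to 7 in 3 libraries) allow no statement on small differences.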

Other observations

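Within the wider list of ATF4 targets, genes of 1 library stood out that the rule for named genes did not select, and these were chosen after their values were seen. GADD45A, a growth arrest gene induced by DNA damage and by ATF4, was at 6.7 and 3.7 CPM in wild-type libraries 1 and 2, 6.9 CPM in transgenic library 1 and 83.4 CPM in transgenic library 2. MTHFD2, a mitochondrial enzyme of folate metabolism, was at 9.1 and 5.3 CPM, 6.4 CPM and 38.4 CPM in the same order. STC2, a secreted glycoprotein gene induced by ER stress, was at 15.6 and 18.6 CPM, 13.1 CPM and 35.3 CPM, and the tryptophanyl-tRNA synthetase gene WARS1, which interferon also induces, at 80.8 and 76.3 CPM, 72.8 CPM and 183 CPM. Transgenic library 1 was within or near the wild-type range in each, and transgenic library 2 far above it. The adjusted p was between 0.79 and 0.82 in edgeR for all 4.

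Other ATF4 targets were lowest in the same library, and these were fewer. There, 16 of the 27 wider ATF4 targets were above both wild-type libraries (59.3%, against 39.9% of all genes). Below both were 5 (18.5%, against 41.2%). PSAT1, an enzyme of serine synthesis, had 101 and 83.0 CPM in the wild-type pair, 81.1 CPM in transgenic library 1 and 38.8 CPM in transgenic library 2. PHGDH, the first enzyme of the same path, had 47.4 and 35.8 CPM, then 41.7 CPM and 22.3 CPM. The cystine transporter gene SLC7A11 was at 112 and 96.2 CPM in wild type, 115 CPM in transgenic library 1 and 29.7 CPM in transgenic library 2. In brain PHGDH is made mainly by astrocytes, whose 8 markers had a median deviation of -1.94 in transgenic library 2 and -0.01 in transgenic library 1, and the part of this in the lower values was not tested.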
